A study of Mus musculus with 6 samples.

Results

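The 10 genes described here encode interleukins, related cytokines, a receptor and a receptor antagonist that belong to the secretory phenotype of senescent cells: Il6, Il7, Il11, Il1f9 (the older symbol of Il36g), Il1rn, Il33, Il18, Il1rl1, Lif and Csf1. They were chosen by name, matched by symbol to 1 gene ID each, and make up 10 of the 43629 genes in the deposited tables. The RNA came from primary dermal fibroblasts, the matrix-producing cells of the skin, grown from newborn mice and sequenced at passage 1 after 6 days in culture. All mice carried Col1a2Cre, a Cre recombinase directed to fibroblasts, on a mixed background of 50% C57Bl/6 and 50% FVB/N. In the ctrl group 3 mice had Cre only, and in the caNrf2 group 3 mice had Cre together with a constitutively active mutant of Nrf2, a transcription factor of antioxidant genes encoded by Nfe2l2. The title of the series links the expression changes under active Nrf2 to the factors that senescent cells secrete.

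Cytokines of the IL-6 family (Il6, Il11, Lif) bind a private receptor chain and signal through the shared chain gp130 to JAK kinases and STAT3. Cytokines of the IL-1 family (Il1f9, Il33, Il18) bind receptors of the IL-1 receptor type and signal through MyD88 and IRAK kinases to NF-kappaB, and Il1rn encodes a ligand that occupies the IL-1 receptor without activating it. In skin, keratinocytes are a well known source of IL-36 gamma, IL-33, IL-18 and IL-7, while fibroblasts are known for IL-6, IL-11, LIF and the macrophage growth factor CSF1.

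The promoters of 4 genes that were higher in caNrf2 cultures are shown as the DNA just upstream of their start sites. Each is the 250 bases before a RefSeq start (GRCm38.p6), written 5′ to 3′ on the gene's strand, in lower case with motif matches in capitals. The windows are chr5:30012864-30013113 (plus strand) for Il6, chr7:4778142-4778391 (minus strand) for the Il11 start at 4778141, chr2:24186226-24186475 (plus strand) for Il1f9 and chr1:40439379-40439628 (plus strand) for the Il1rl1 start at 40439629.
Il6: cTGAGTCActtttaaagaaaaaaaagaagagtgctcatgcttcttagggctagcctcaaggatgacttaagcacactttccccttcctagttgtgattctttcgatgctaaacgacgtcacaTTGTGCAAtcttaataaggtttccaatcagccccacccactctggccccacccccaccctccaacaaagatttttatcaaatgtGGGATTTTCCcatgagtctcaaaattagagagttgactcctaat
Il11: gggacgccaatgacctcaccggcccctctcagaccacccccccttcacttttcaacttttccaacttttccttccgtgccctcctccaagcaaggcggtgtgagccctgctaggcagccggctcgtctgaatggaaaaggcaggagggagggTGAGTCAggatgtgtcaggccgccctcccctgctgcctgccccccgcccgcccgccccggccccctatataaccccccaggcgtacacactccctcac
Il1f9: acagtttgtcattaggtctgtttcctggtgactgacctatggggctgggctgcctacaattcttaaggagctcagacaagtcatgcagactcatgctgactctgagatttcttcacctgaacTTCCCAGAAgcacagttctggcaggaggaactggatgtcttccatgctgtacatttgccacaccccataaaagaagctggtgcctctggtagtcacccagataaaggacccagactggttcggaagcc
Il1rl1: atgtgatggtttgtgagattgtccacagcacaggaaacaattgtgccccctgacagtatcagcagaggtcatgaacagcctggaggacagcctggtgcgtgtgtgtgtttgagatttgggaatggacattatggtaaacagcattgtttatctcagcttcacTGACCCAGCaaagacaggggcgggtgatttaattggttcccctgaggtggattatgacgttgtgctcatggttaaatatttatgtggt

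The motifs searched on both strands began with the core of the antioxidant response element bound by NRF2 (TGACNNNGC) and AP-1 (TGANTCA). These can overlap each other. The others were NF-kappaB (GGG, then NN, then TTTCC), STAT (TTCNNNGAA), the cAMP response element (TGACGTCA) and C/EBP (TTGCNNAA). Other forms of the NF-kappaB site were not searched. Of 32851 promoter windows of this length, 10.2% held the antioxidant response core, 6.75% AP-1, 1.41% NF-kappaB, 7.02% STAT, 1.55% the cAMP response element and 9.56% C/EBP. The Il6 window held an AP-1, a C/EBP and an NF-kappaB match, the last beginning 44 bases before the start. The Il11 window held an AP-1 match and the Il1f9 window a STAT match. The Il1rl1 window held the antioxidant response core, as TGACCCAGC beginning 88 bases before the start at 40439629. The transcript beginning nearest to that start, ENSMUST00000097772 (first base 40439627), held 2.55% to 4.37% of the gene's counts in ctrl and 2.18% to 4.03% in caNrf2. The main transcript, ENSMUST00000173514, begins at 40439776. RefSeq held 14 windows for 9 of the 10 genes. Among the windows not printed, the antioxidant response core was also matched in that of Lif, beside an AP-1 match. An NF-kappaB match stood in those of Csf1 and of 1 start of Il1rn, and an AP-1 match in that of another start of Il1rn. C/EBP was matched for 1 start of Il33 and for the Il1rl1 start at 40429570, which held no antioxidant response core. The rest, among them the Il11 window for the start at 4782857, held no match. A match is a description of the letters, not a measured binding site.

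Libraries held 30168250 to 45164071 expected counts. Nfe2l2 was 3.48-fold and its target Nqo1 25.3-fold higher in caNrf2 (adjusted p = 5.96e-06 and 1.38e-07), so the libraries matched their labels. Values below are CPM, counts scaled to library sizes corrected by TMM, unless TPM is named. Of 11 fibroblast markers Col1a1 was the most abundant, at 11200 CPM or more in each library, and Fap the lowest, at 2.35 to 3.86 CPM. A gene is called when its edgeR quasi-likelihood p, adjusted by Benjamini-Hochberg over all genes tested, lies under 0.05. In bulk RNA, fewer cells of a type and less RNA per cell cannot be told apart.

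All 10 genes passed the filter on low counts, each with at least 13 expected counts in every library. Of them 6 were called higher in caNrf2 (Il7, Il1f9, Il11, Il1rl1, Il6 and Il1rn), 0 were called lower and 4 were not called (Il33, Il18, Lif and Csf1). Over all 15341 genes tested, 21.5% were called, 12.5% higher and 9.03% lower. The groups did not overlap in 7 of the 10 genes, against 42.1% of all genes, and 6 of these were higher in caNrf2, against 22% of all genes. The median log2 fold change was 0.95 over the 10 genes and -0.003 over all genes tested. The 10 genes were picked with earlier results of these data known, so these shares say nothing particular about them as a set. Il7, Il1f9 and Il11 were called and at least 4-fold higher, as were 2.14% of all genes.

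**Figure D1:**
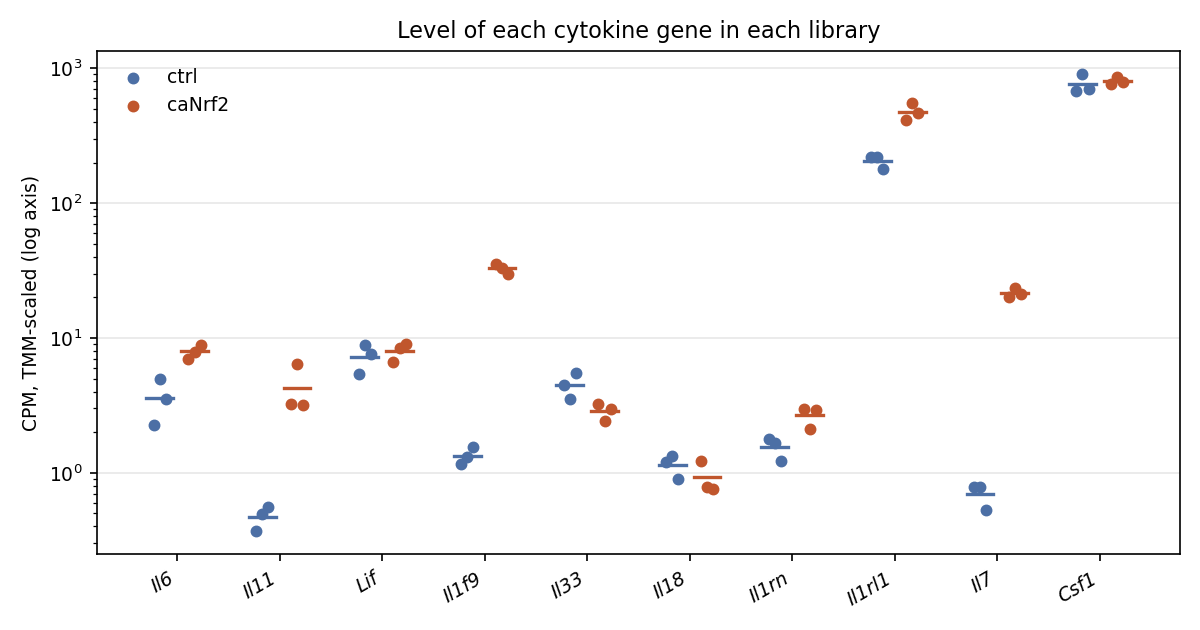
Level of each of the 10 genes in each library, in TMM-scaled CPM on a log axis. Points are libraries (3 ctrl, 3 caNrf2) and short lines are group means. The caNrf2 points of Il7 (20.2 to 23.3 CPM) and Il1f9 (30 to 35.5 CPM) stand far above their ctrl points, whereas those of Lif, Il18 and Csf1 overlap.

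Among ligands of the IL-6 family, Il6 and Il11 rose and Lif was not called. Il6 (ENSMUSG00000025746, chromosome 5, 30013161 to 30019968, GRCm38) encodes the prototype of the family and stood at 2.28, 4.98 and 3.54 CPM in ctrl and at 6.98, 7.92 and 8.91 CPM in caNrf2 libraries 1 to 3. Every caNrf2 library lay above every ctrl library. The ratio of caNrf2 to ctrl was 2.19 (95% interval 1.48 to 3.24, SE of log2 0.25, adjusted p = 0.0126). Expected counts were 81 to 223 in ctrl and 258 to 387 in caNrf2, all on 1 transcript of 5 exons.

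Il11 (ENSMUSG00000004371, chromosome 7, 4773055 to 4782857) encodes a cytokine known for its part in fibrosis. It stood at 0.367, 0.491 and 0.562 CPM in ctrl and at 3.25, 6.4 and 3.16 CPM in caNrf2. The groups did not overlap, and caNrf2 library 2 was about the sum of the other caNrf2 libraries. This amounted to a 9.02-fold rise (5.18 to 15.7, SE of log2 0.35, adjusted p = 0.000373), and without caNrf2 replicate 2 the gene was still called. Its reads were assigned to transcripts with different first exons. The one from the start at 4778141, with 199 codons, held 54.1% to 59.9% of the counts in ctrl and 51.7% to 64.6% in caNrf2, and the one from 4782857, with 140 codons, held the rest. Both starts therefore carried more counts in caNrf2, at 70.8 to 180.62 against 7.79 to 12.5 for the first and 42.46 to 103.14 against 5.22 to 9.51 for the second.

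Lif (ENSMUSG00000034394, chromosome 11, 4257557 to 4272514), which encodes leukemia inhibitory factor, stood at 5.36, 8.84 and 7.63 CPM in ctrl and at 6.68, 8.41 and 8.98 CPM in caNrf2. The groups overlapped. The fold change was 1.1 with a 95% interval of 0.812 to 1.49 (adjusted p = 0.641), and without ctrl replicate 1 the log2 fold change was -0.05. Most counts were assigned to the transcript from the start at 4267095, with 158 codons (77.7% to 99.5% in ctrl, 72.6% to 86.5% in caNrf2). The transcript from the upstream start at 4257557, with 203 codons, held 0, 0 and 51.48 counts in ctrl and 47.57, 97.13 and 51.46 in caNrf2. Transcript usage of Lif was not called (edgeR diffSpliceDGE adjusted p = 1). It was called without ctrl replicate 3, the only ctrl library with counts on the upstream start (adjusted p = 0.00693).

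In the IL-1 family the agonist Il1f9 rose strongly, while Il33 and Il18 were not called. Il1f9 (ENSMUSG00000044103, chromosome 2, 24186476 to 24193568) encodes IL-36 gamma, an agonist of the IL-36 receptor. It stood at 1.16, 1.32 and 1.55 CPM in ctrl and at 35.5, 33.2 and 30 CPM in caNrf2. Libraries of a group lay close together, and the groups were far apart. Il1f9 rose 24.6-fold (20 to 30.3, SE of log2 0.13, adjusted p = 1.24e-07), resting on 41 to 59 expected counts in ctrl and 1302 to 1473 in caNrf2. The other IL-36 agonist genes, Il36a and Il36b, were near 0 in both groups, at most at 0.0703 CPM on average, and were not tested.

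Il33 (ENSMUSG00000024810, chromosome 19, 29925114 to 29960718) encodes a nuclear alarmin that is released on cell damage. It stood at 4.45, 3.53 and 5.49 CPM in ctrl and at 3.22, 2.41 and 2.95 CPM in caNrf2. Every caNrf2 library lay below every ctrl library. The fold change was 0.639 (0.465 to 0.879, SE of log2 0.20), just outside the threshold (adjusted p = 0.0519). Without ctrl replicate 2 it was called lower (log2 fold change -0.80, adjusted p = 0.0286), as it was with 4 other settings given at the end. Counts were divided between starts at 29925114 and 29945790 in shares that ran from 0% to 100% within ctrl, so no start could be followed.

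Il18 (ENSMUSG00000039217, chromosome 9, 50575273 to 50581837) encodes a cytokine that caspase-1 activates by cleavage. It stood at 1.21, 1.34 and 0.892 CPM in ctrl and at 1.22, 0.789 and 0.76 CPM in caNrf2, from 27 to 60 expected counts. The groups overlapped. The fold change was 0.793 with a wide interval of 0.513 to 1.23 (adjusted p = 0.424), so neither a fall nor a small rise could be told at this depth.

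The antagonist gene Il1rn and the receptor gene Il1rl1 were both called higher, from very different levels. Il1rn (ENSMUSG00000026981, chromosome 2, 24336853 to 24351494) stood at 1.78, 1.67 and 1.22 CPM in ctrl and at 2.98, 2.12 and 2.93 CPM in caNrf2. The groups did not overlap, though the gap between ctrl library 1 and caNrf2 library 2 was small. Il1rn rose 1.7-fold (1.2 to 2.42, SE of log2 0.22, adjusted p = 0.0393). On the log2 scale it was no longer called when ctrl replicate 1 (0.85), 2 (0.82) or 3 (0.63) or caNrf2 replicate 1 (0.685) or 3 (0.69) was left out, nor with the replicate number as a block (0.77, adjusted p = 0.0623). The transcript with 178 codons, the length of the secreted protein, held 56% to 79.1% of the counts in ctrl and 57.6% to 76.4% in caNrf2.

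Il1rl1 (ENSMUSG00000026069, chromosome 1, 40429570 to 40465415) encodes ST2, the receptor of IL-33, and was the second most abundant of the 10 genes. It stood at 221, 220 and 179 CPM in ctrl and at 413, 550 and 463 CPM in caNrf2. The groups did not overlap. Il1rl1 rose 2.3-fold (1.87 to 2.82, SE of log2 0.13, adjusted p = 0.000331).

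The gene makes a membrane-bound form and a soluble form that lacks the membrane anchor and can bind IL-33 as a decoy. Transcripts with 337 codons, the length of the soluble form, stood at 124, 122 and 96.8 TPM in ctrl and at 216, 319 and 270 TPM in caNrf2. Transcripts with 567 codons, the length of the membrane-bound form, stood at 19.8, 18.1 and 15.4 TPM in ctrl and at 26.5, 36 and 30.9 TPM in caNrf2. In both forms the groups did not overlap, and in all libraries the shorter coding sequence was the more abundant. The main transcript of 337 codons, ENSMUST00000173514, held 73.5% to 76.6% of the gene's counts in ctrl and 79.8% to 81.3% in caNrf2. This shift was not called (edgeR diffSpliceDGE adjusted p = 1 for the gene).

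**Figure D2:**
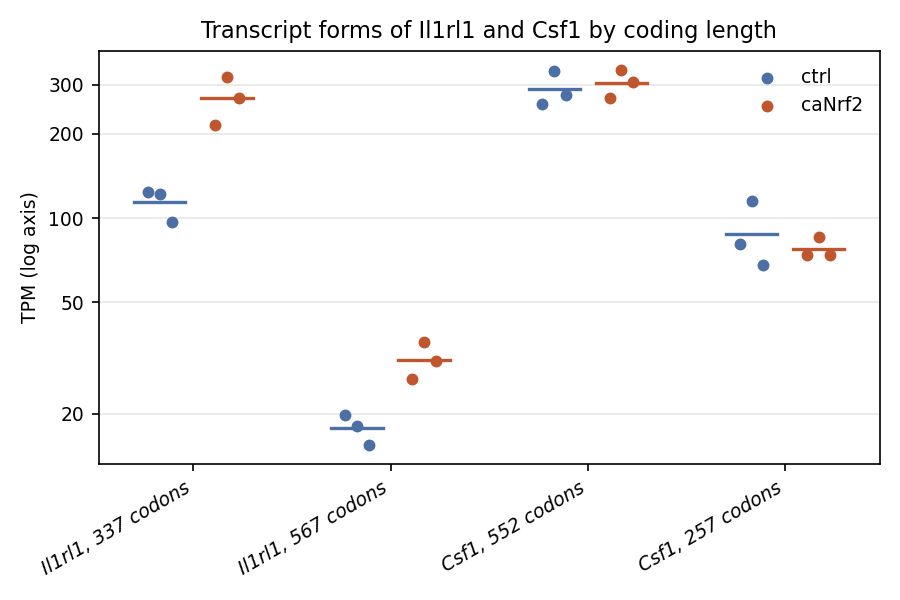
Level of the main transcript forms of Il1rl1 and Csf1, grouped by the length of the coding sequence, in TPM on a log axis. Points are libraries and short lines are group means. Both forms of Il1rl1 are higher in each caNrf2 library than in each ctrl library, whereas the groups overlap for both forms of Csf1.

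Il7 (ENSMUSG00000040329, chromosome 3, 7569994 to 7613760) encodes a survival factor for lymphocytes and showed the highest fold change of the 10 genes. It stood at 0.789, 0.781 and 0.529 CPM in ctrl and at 20.2, 23.3 and 21.3 CPM in caNrf2. Libraries of a group lay close together, and the groups were far apart. Il7 rose 30.2-fold (23.7 to 38.6, SE of log2 0.16, adjusted p = 1.76e-07), from 16 to 35 expected counts in ctrl and 745 to 1033 in caNrf2. The transcript from the start at 7605864, with 113 codons, held 56.4% to 70.5% of the counts in ctrl and 58.5% to 60.1% in caNrf2. The transcript with 154 codons, ENSMUST00000194279, held at most 3.72 counts in ctrl libraries and at least 101.54 in caNrf2 libraries, and usage was not called (edgeR diffSpliceDGE adjusted p = 1). An exon of Il7 overlaps the antisense gene Gm16685, and no strand setting is given in the sources used here. Gm16685 itself held 5 counts in each ctrl library and 25, 46 and 46 in caNrf2 libraries (log2 fold change 2.74, adjusted p = 0.000775), far fewer than Il7. It passed the filter on low counts only through its caNrf2 libraries, so it could not have been called lower.

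Csf1 (ENSMUSG00000014599, chromosome 3, 107741048 to 107760469), which encodes the growth factor of macrophages, was the most abundant of the 10 genes and was not called. It stood at 679, 913 and 708 CPM in ctrl and at 762, 862 and 789 CPM in caNrf2. The groups overlapped. Its fold change was 1.05 (0.864 to 1.27, adjusted p = 0.727), so changes beyond these bounds lie outside the interval. Without ctrl replicate 1 the log2 fold change was -0.02. Transcripts with 552 codons stood at 290 ± 42.2 TPM in ctrl and 305 ± 36.1 TPM in caNrf2, and the transcript with 257 codons at 87.9 ± 24.2 and 77.7 ± 6.85 TPM (SD, n = 3 each).

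**Figure D3:**
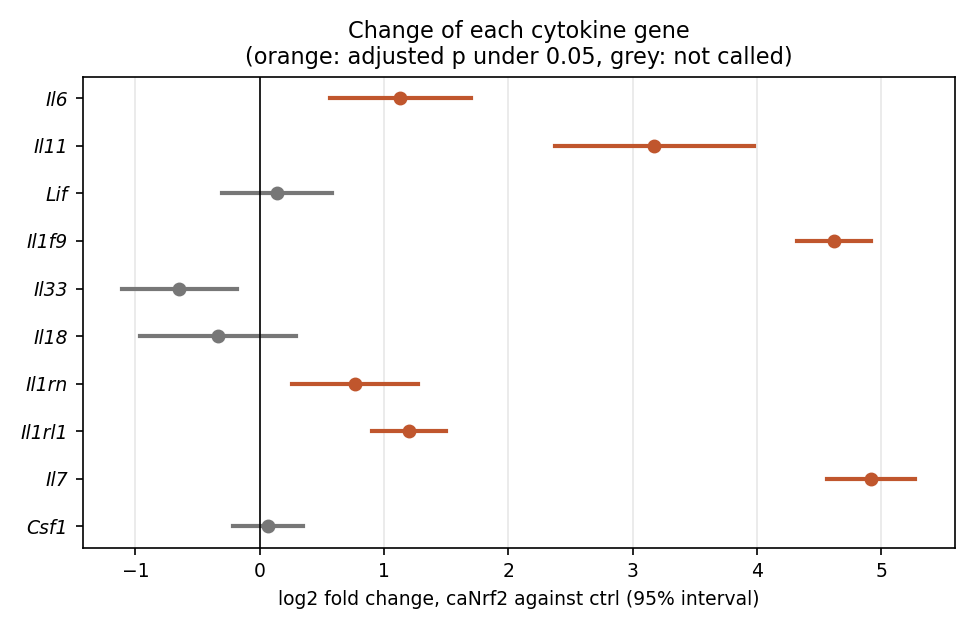
Log2 fold change of each gene in caNrf2 against ctrl, with its 95% interval from the edgeR quasi-likelihood fit. Orange marks the 6 genes called higher and grey the 4 not called. The intervals of Il7, Il1f9 and Il11 lie above 2, and that of Il33 lies below 0 although its adjusted p of 0.0519 missed the threshold.

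Transcript usage was called in 0 of the 7 genes with at least 2 tested transcripts (edgeR diffSpliceDGE), against 1.21% of 7992 genes overall. The count of these genes at an unadjusted p under 0.05 was also 0.

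Per transcript length, the order of the 10 genes differed between the groups. In ctrl it ran from Csf1 (432 ± 63 TPM) and Il1rl1 (145 ± 10.7) through Il6 (6.79 ± 2.56), Lif (3.82 ± 0.846), Il18 (3.58 ± 0.717), Il33 (3.4 ± 0.751), Il1rn (2.01 ± 0.36), Il1f9 (1.6 ± 0.245) and Il11 (0.86 ± 0.187) to Il7 (0.57 ± 0.139; SD, n = 3 each). Libraries of neighbouring genes overlapped from Il6 to Il33, between Il1rn and Il1f9 and between Il11 and Il7. In caNrf2 it ran from Csf1 (417 ± 52.6 TPM) and Il1rl1 (322 ± 70.5) through Il1f9 (37.7 ± 2.11), Il7 (17.3 ± 2.26), Il6 (14.4 ± 2.36), Il11 (7.39 ± 3.36), Lif (4.25 ± 0.72), Il1rn (3.45 ± 1.05) and Il18 (2.74 ± 0.6) to Il33 (2.26 ± 0.488). There the neighbours overlapped for Csf1 and Il1rl1, for Il7 and Il6, and from Lif to Il33. Il7 was thus last in ctrl, and in caNrf2 only Csf1, Il1rl1 and Il1f9 stood above it.

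Receptors of these cytokines did not move in 1 direction. Of 12 tested, 2 were higher, 3 lower and 7 not called, with a median log2 fold change of 0.06. Of all genes tested, 12.5% were called higher and 9.03% lower. Higher were Csf1r, the receptor of CSF1 (4.57 ± 1.48 to 13.8 ± 0.899 CPM, adjusted p = 0.00105), and Il1rap, the accessory chain shared by receptors of the IL-1 family (68 ± 4.44 to 83.7 ± 6.24 CPM, adjusted p = 0.0332). Lower were Il2rg, a chain of the IL-7 receptor (7.82 ± 0.652 to 4.24 ± 0.57 CPM, adjusted p = 0.00285), Il11ra1, the IL-11 receptor (78.9 ± 4.79 to 58.4 ± 8.31 CPM, adjusted p = 0.0201), and Il1rl2, the IL-36 receptor (85.1 ± 5.76 to 70.9 ± 3.76 CPM, adjusted p = 0.0443). Il6st, which encodes gp130, was not called (907 ± 63.2 to 798 ± 96.3 CPM, adjusted p = 0.258). Il7r, which pairs with Il2rg, averaged 0.218 and 0.739 CPM (adjusted p = 0.0782). Il6ra averaged 9.79 and 7.83 CPM (adjusted p = 0.122). Il1rap was no longer called, on the log2 scale, without ctrl replicate 1 (0.265) or 2 (0.27), nor without caNrf2 replicate 2 (0.30) or 3 (0.23). Il11ra1 was no longer called without ctrl replicate 3 (-0.385), caNrf2 replicate 2 (-0.355) or caNrf2 replicate 3 (-0.42). Il1rl2 was called without ctrl replicate 1 and with none of the other libraries left out (log2 fold changes of -0.316 to -0.22), nor with the replicate number as a block (-0.26, adjusted p = 0.0536) or with no filter (-0.27, adjusted p = 0.0522).

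Among 18 genes of signal transduction, 2 were called higher (median 0.08). For this list and the next, the shares over all genes tested were 12.5% higher and 9.03% lower. Stat5a (24.1 ± 2.9 to 40.1 ± 3.18 CPM, adjusted p = 0.00158) and Stat5b (50.8 ± 3.09 to 69.7 ± 2.5 CPM, adjusted p = 0.00294), which act below the IL-7 receptor among others, were higher. Stat3 was not called (297 ± 28.1 to 356 ± 14.5 CPM, adjusted p = 0.0792). Of 14 tested decoys and feedback inhibitors, 3 were higher and 1 lower (median 0.12). Socs3, which STAT3 induces and which blocks gp130, rose 2.26-fold (22.1 ± 4.14 to 50.1 ± 0.512 CPM, adjusted p = 0.000269). Zfp36, which destabilizes cytokine mRNAs, rose 1.42-fold and Tnfaip3, an inhibitor of NF-kappaB, 1.64-fold. Irak3, an inhibitory kinase of IL-1 signalling, fell to 0.663-fold (adjusted p = 0.00255). The decoy receptor gene Il1r2 (2.58 and 1.9 CPM) and the IL-18 binding protein gene Il18bp (1.37 and 1.57 CPM) were not called.

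Known STAT3 target genes had 5 of 14 tested members higher, 0 lower and 9 not called (median 0.425). For this list and the next, the shares over all genes tested were 12.5% higher and 9.03% lower. Besides Socs3 the higher targets included Il4ra, an IL-4 receptor chain (192 ± 47 to 455 ± 45.8 CPM, adjusted p = 0.00111), the protease inhibitor gene Timp1 (117 ± 17.5 to 216 ± 7.77 CPM, adjusted p = 0.000689) and Bcl3 (18.1 ± 2.55 to 26.7 ± 2.47 CPM, adjusted p = 0.0106). Of 13 genes that process or release cytokines, 3 were higher and 1 lower (median 0.07). Casp1, whose product cleaves IL-18, rose 4.23-fold (7.33 ± 1.07 to 30.9 ± 6.16 CPM, adjusted p = 4.52e-05). Ctss, a lysosomal protease, rose 5.21-fold (4.03 ± 2.27 to 21 ± 1.67 CPM, adjusted p = 0.0022), and the calpain gene Capn1 1.21-fold (adjusted p = 0.0213). Casp8 was at 0.769-fold (adjusted p = 0.0154). Nlrp3 and Pycard, which build the complex that activates caspase-1, stayed at 1.11 CPM or less on average and were not called. Capn1 was no longer called, on the log2 scale, when ctrl replicate 1 (0.26), 2 (0.26) or 3 (0.28) or caNrf2 replicate 2 (0.255) was left out, nor Casp8 when ctrl replicate 2 (-0.37) or 3 (-0.38) was.

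**Figure D4:**
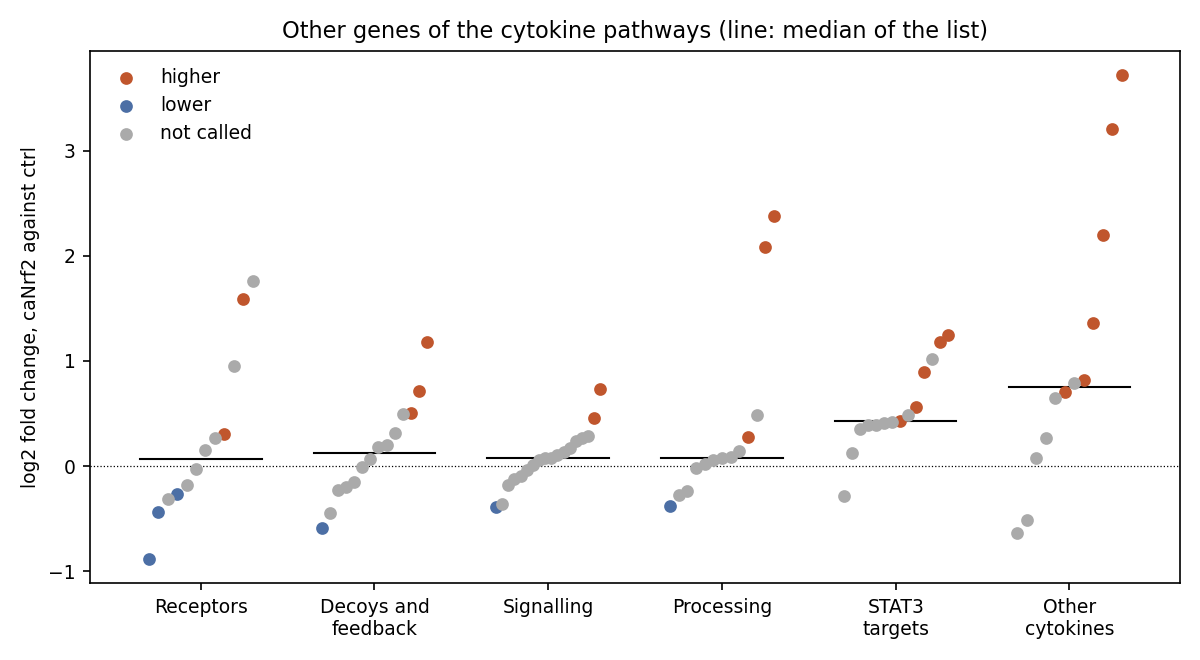
Log2 fold change in caNrf2 against ctrl of the other tested genes of the cytokine pathways, by list. Each point is a gene, coloured by its call, and lines are medians, which lie at 0.06 for receptors, 0.425 for STAT3 targets and 0.75 for other cytokines.

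Of 28 other cytokine genes, from the IL-6 and IL-1 families and from others, 12 were tested. Of these, 6 were higher, 0 lower and 6 not called (median 0.75), and 16 were too low to test. Over all genes tested, 12.5% were called higher and 9.03% lower. Kitl, the ligand of KIT, was the most abundant, and rose 2.57-fold (129 ± 9.82 to 331 ± 3.41 CPM, adjusted p = 1.12e-05). Il16 stood at 2.16 ± 0.436 and 9.77 ± 0.873 CPM (adjusted p = 4.08e-05). Il19 went from 0.0427 ± 0.0211 to 0.63 ± 0.0752 CPM (adjusted p = 0.000392) and Csf3, which encodes G-CSF, from 0.0577 ± 0.032 to 0.532 ± 0.143 CPM (adjusted p = 0.0023), both with few counts in ctrl. Both passed the filter on low counts only through their caNrf2 libraries, so neither could have been called lower. Il34, the other ligand of the CSF1 receptor, rose 1.76-fold (3.02 ± 0.32 to 5.32 ± 0.55 CPM, adjusted p = 0.00617) and was named after its values were seen. Il1a averaged 0.662 and 0.789 CPM and was not called. Il1b, Tnf and Csf2 averaged at most 0.193 CPM in either group and were not tested.

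Markers of other cell types in the cultures were compared beside these genes. Of 16 markers of macrophages and leukocytes, 15 were higher and 1 was not called (median log2 fold change 1.92). Of the 15, Cd52, at 0.0573 CPM in ctrl on average, passed the filter on low counts only through its caNrf2 libraries. The summed level of the 16 markers was 23.6, 66.8 and 66.4 CPM in ctrl and 184, 203 and 168 CPM in caNrf2. Lyz2 was the most abundant, and no marker was at 0. Csf1r, one of them, and Ctss therefore moved together with this list. Ctrl library 1 held the lowest sum and ctrl libraries 2 and 3 about the same. Within ctrl, library 1 was also the lowest for Il6, Il11, Il1f9, Lif and Csf1. It was the highest, by a small margin over library 2, for Il7, Il1rn and Il1rl1, and lay in between for Il33 and Il18. The part of these cells in the results was not tested.

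Of 13 tested keratinocyte markers, 3 were higher (Krt14, Sfn and Ivl) and 10 not called, with a median log2 fold change of 0.562. Of all genes tested, 12.5% were called higher. Sfn rose 3.44-fold (22.8 ± 4.29 to 78.3 ± 17.9 CPM, edgeR adjusted p = 0.000208), and Ivl lay just inside the threshold (edgeR adjusted p = 0.0487). Sfn and Ivl were named after their values were seen. Over 14 markers the summed level was 208 to 345 CPM in ctrl and 331 to 535 CPM in caNrf2, with none at 0. Krt14 was the most abundant by TPM. Krt5, the more abundant by CPM (86.4 ± 24.5 to 135 ± 36 CPM), was not called (edgeR adjusted p = 0.0791). The call of Krt14 did not hold, on the log2 scale, when ctrl replicate 2 (0.59), ctrl replicate 3 (0.67), caNrf2 replicate 2 (0.59) or caNrf2 replicate 3 (0.74) was left out. By library the sum was 345, 208 and 227 CPM in ctrl and 331, 535 and 442 CPM in caNrf2, beside 1.16, 1.32 and 1.55 CPM of Il1f9 in ctrl and 35.5, 33.2 and 30 CPM in caNrf2. The part of keratinocytes in the level of Il1f9 was not tested. Of 7 mast cell markers, which belong to cells known for ST2, Cpa3, Mcpt4 and Tpsb2 were at 0 counts in all libraries, and the sum lay at 0.62 to 1.12 CPM in ctrl and 1.62 to 1.73 CPM in caNrf2, most of it Kit. Kit, the only one of them tested, was called higher (0.738 ± 0.25 to 1.59 ± 0.0221 CPM, adjusted p = 0.0161). Its call did not hold, on the log2 scale, when ctrl replicate 1 (0.97), ctrl replicate 2 (1.02), caNrf2 replicate 2 (1.12) or caNrf2 replicate 3 (1.11) was left out. Of 7 markers of T and NK cells, Cd3e, Cd2 and Nkg7 were at 0 in all libraries, and the sum was 0.761 to 0.893 and 0.451 to 0.714 CPM. The other markers of the mast cell list and of the T and NK cell list, among them Kit and Lck, had counts in some or all libraries. Il1rl1 was at 179 CPM or more in every library. The part of other cells in the level of Il1rl1 was not tested. Summed endothelial markers lay at 11.7 to 15.2 and 16.6 to 17.9 CPM with 1 of 8 tested higher. Melanocyte and Schwann cell markers lay at 11.9 to 16 and 16.6 to 21.7 CPM with 1 of 6 higher. Skeletal muscle markers lay at 40.9 to 46.2 and 45.1 to 83.3 CPM with 3 of 5 higher. Fibroblast markers had 2 of 11 higher and 5 lower, with sums of 37500 to 53800 and 27900 to 32900 CPM.

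As a description, the genes whose log2 CPM over the 6 libraries was most like that of each cytokine gene were sought among tested genes with a mean of at least 5 CPM. They were Bmper and Stat3 for Il6 (Pearson's r = 0.9985 and 0.9954), Smyd4 and 5031439G07Rik for Il11, Nyx and Serpinb9b for Il7, Lix1 and Uchl1 for Il1f9, Lrp2 and Atp6v0a1 for Il1rl1 and Tsr1 and Dhrs3 for Il1rn. For the genes not called they were Lpar4 and Rpl28-ps1 for Il33, Rpa2 and Ppp1r14a for Il18, Apln and Acvr1 for Lif and Hpcal1 and Ccn2 for Csf1. The lowest of these r was 0.9787, for Lif and Acvr1. The libraries fall into 2 groups, about 10752 genes were searched and each value rests on 6 libraries, so they are given without a p.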

How the data were processed

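RNA-seq of 6 libraries was compared, 3 ctrl and 3 caNrf2, each taken as 1 mouse. Groups and replicate numbers came from the sample titles. The submitters' processing notes name CASAVA 1.8, RSEM 1.2.21 and GRCm38. For the aligner, annotation release and strand setting nothing is stated in those sources. The authors deposited expected counts per transcript (maximum likelihood and posterior mean, per the file headers). RSEM divides reads shared by transcripts, so these counts can be fractional. Per the file headers they also deposited TPM, used here only for levels per length, and FPKM, which was not used.

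Maximum likelihood counts of a gene's transcripts were added up, then rounded. edgeR 4.0.16 (R 4.3.3) was run with filterByExpr (minimum count 10, minimum total 15), TMM and its quasi-likelihood test, two-sided and with no block for replicate number. p-values were adjusted over all 15341 genes (threshold 0.05). Standard errors and 95% intervals were derived from the F statistic, and errors are SD (n = 3). Gene symbols came from a table naming 42462 of 43629 IDs, coding lengths from GENCODE M21 and promoters from RefSeq (GRCm38.p6). Of the fixed lists, Il36rn and Flt3l were not analysed here. For the signalling list 1 called gene is not reported here. On simulated counts the test called 88 of 100 genes changed 2-fold, 50 of 100 changed 1.5-fold and 6 of 14970 unchanged (15170 tested). The transcript usage test called 71 of 100 genes with swapped shares and 44 of 7964 unchanged genes, so its calls are liberal. Changed genes and swapped transcripts were drawn from those above a floor of mean counts set for each test. Genes with swapped shares also had exactly 2 transcripts above the second floor. Il18 lay under the first floor, so the shares found for changed genes do not cover it. None of the 10 genes had exactly 2 transcripts above the second floor, so the share found for swapped genes covers none of them.

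The genes and lists were chosen with earlier results of these data known. Named besides the 10 genes are at most 4 called genes per list and direction by smallest adjusted p, the most abundant marker by mean TPM and the markers at 0 of each cell type, and the 2 most similar genes. Alternatives were DESeq2 1.42.0, limma-voom (limma 3.58.1), other normalizations, filters and count columns, the replicate block and each library left out.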

Additional observations from a re-analysis of the deposited data

How the results depend on the processing

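Il6, Il7, Il11, Il1f9 and Il1rl1 kept their direction and their call in all 16 alternatives, with log2 fold changes of 0.88 to 1.45, 4.77 to 5.01, 2.75 to 3.34, 4.52 to 4.72 and 1.08 to 1.29. Il18 was not called in any (-0.58 to -0.21). Il33 was called lower, making 1 gene called lower, with upper-quartile factors (-0.68, adjusted p = 0.044), no filter (-0.65, 0.0291), DESeq2 (-0.65, 0.0307) and the replicate block (-0.64, 0.0381). With libraries left out in turn, Il33 ranged from -0.80 to -0.48 and genes called lower from 0 to 1. Il1rn was not called with the replicate block (0.77, adjusted p = 0.0623) and ranged from 0.63 to 0.91 with libraries left out. Csf1 ranged from -0.023 (without ctrl replicate 1) to 0.212 and Lif from -0.051 (without ctrl replicate 1) to 0.309 with libraries left out, never called. Transcript usage was called in 0 to 1 genes. Over all genes, those called lower fell to 823 without ctrl replicate 3 and 864 without caNrf2 replicate 2 and reached 1143 without caNrf2 replicate 1, against 1385 with all libraries. The cause of these differences was not tested.

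Libraries of the same replicate number correlated in their deviations from the group means at 0.214, 0.209 and 0.095. Libraries of different numbers correlated at -0.242 to 0.112, and caNrf2 library 3 correlated best with ctrl library 2 (0.112). The labels do not say what the numbers mark, so the numbers were not taken as pairs in the main fit. With the replicate block 1888 genes were called higher and 1330 lower. Fewer than 100 expected counts per library lay behind the ctrl values of Il7, Il11, Il1f9 and Il1rn and behind Il18. Il6 also held only 81 in ctrl library 1, and Il1rn 94 in caNrf2 library 2. The alternatives for transcript usage and for genes of the lists were chosen after seeing the data.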
